A study of Homo sapiens with 2 samples.

Results

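CHD4 occupancy was described at the genes that encode CHD4 itself and the other 8 members of its family, *CHD1* to *CHD9*. The members are the CHD4 peaks that overlap 1 of these 9 genes (gene records of GENCODE release 44 on GRCh37, also called hg19) or the 2000 bp before its start, counting an overlap of 1 bp. There are 47 such peaks among the 60126 of the list, or 0.0782%. The peaks come from ChIP-seq of untreated 501Mel cells, an established human melanoma cell line grown in RPMI with 10% foetal calf serum, whose chromatin was fixed with 0.4% paraformaldehyde and sonicated. CHD4 was precipitated in 1 library and input chromatin was sequenced in 1, with no perturbation in either, so no value here has a replicate error and none was tested. The peak list carries no read counts, so its depth is unknown from the values, and it holds no measure of expression against which the melanoma label could be checked. For each peak, which is a broad region, the authors' caller gave a fold enrichment, relative to its background, and a q value. Each value stands for the whole region and not for a point within it.

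CHD proteins are ATP-dependent nucleosome remodellers that carry a pair of chromodomains and a SNF2-type helicase motor. *CHD3*, *CHD4* and *CHD5* encode alternative ATPases of the NuRD complex, which couples nucleosome remodelling to histone deacetylation by HDAC1 and HDAC2. *CHD1* and *CHD2* encode remodellers that act at transcribed genes, and *CHD6* to *CHD9* form a further subfamily, in which *CHD7* is mutated in CHARGE syndrome and *CHD8* in autism. A ChIP peak marks where the CHD4 protein, or chromatin crosslinked to it, was recovered, and says nothing by itself about the activity of the gene beneath it.

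Most peaks of this family were centred in introns of the canonical transcript, a placement not set against that at other genes. None covered a canonical start base, though 8 covered the start of some annotated transcript. Stretches of peaks and of starts are shown as examples of their CpG content, read along the strand of each gene with every CpG dinucleotide in capitals. Peak and start are both printed for *CHD1* and *CHD3* only, and all genes of the family are compared further below. Only stretches free of annotated exons were chosen for printing. The first is from the strongest peak, at *CHD4*, and is the 150 bp nearest to its centre that no exon touches (GRCh37 chr12:6717436-6717585, minus strand), with 2 CpGs. The next is the 150-bp centre of the peak that ends 83 bp before the start of *CHD2* (chr15:93443066-93443215, plus strand), with no CpG. The third is the centre of the only peak of *CHD8* (chr14:21924730-21924879, minus strand), with 4 CpGs, and the fourth is the whole 157-bp peak of *CHD1* (chr5:98242457-98242613, minus strand), with no CpG.
CHD4 peak: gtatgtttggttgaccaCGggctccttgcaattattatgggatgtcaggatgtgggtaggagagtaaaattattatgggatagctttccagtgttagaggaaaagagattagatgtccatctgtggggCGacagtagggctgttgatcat
CHD2 peak: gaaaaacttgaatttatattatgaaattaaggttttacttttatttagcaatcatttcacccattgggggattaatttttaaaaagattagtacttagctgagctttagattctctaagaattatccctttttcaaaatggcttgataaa
CHD8 peak: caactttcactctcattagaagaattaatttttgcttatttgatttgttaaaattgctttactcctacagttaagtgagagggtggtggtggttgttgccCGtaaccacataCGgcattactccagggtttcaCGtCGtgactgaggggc
CHD1 peak: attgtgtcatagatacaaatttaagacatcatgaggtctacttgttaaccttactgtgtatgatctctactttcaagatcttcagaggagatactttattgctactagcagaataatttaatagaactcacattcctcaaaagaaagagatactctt
The starts of *CHD9* and *CHD1* had the most CpGs among the 7 genes whose starts were read in this way, and the other 5 had from 0 before *CHD2* to 9 before *CHD4*. *CHD5* and *CHD7* were not read in this way. In the 501 bp around the canonical start the order was another, with 88 CpGs at *CHD7*, 78 at *CHD1*, 66 at *CHD5*, 50 at *CHD4* and 46 at *CHD9*. There *CHD6* had 43, *CHD8* 26, *CHD3* 12 and *CHD2* 11. *CHD3* is shown as well because it goes the other way, with 9 CpGs at the centre of its strongest peak (chr17:7790898-7791047, plus strand) and 7 in the 150 bp before its canonical start (chr17:7791957-7792106). The 150 bp immediately before the canonical start of *CHD9* (chr16:53088753-53088902, plus strand), which lie outside the peaks, have 16 CpGs. The centre of the *CHD9* peak nearest that start, not printed, has 3. The 150 bp before the start of *CHD1* (chr5:98264712-98264861, minus strand) have 24 CpGs, and the only peak of this gene lies 22098 bp after that start. The nearest peak of the whole list lies 11116 bp before it, beyond the 2000 bp that were counted with the gene.
CHD3 peak: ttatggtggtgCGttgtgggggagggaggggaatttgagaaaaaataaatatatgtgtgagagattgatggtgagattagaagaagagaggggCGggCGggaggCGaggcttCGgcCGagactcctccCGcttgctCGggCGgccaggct
CHD3 before the start: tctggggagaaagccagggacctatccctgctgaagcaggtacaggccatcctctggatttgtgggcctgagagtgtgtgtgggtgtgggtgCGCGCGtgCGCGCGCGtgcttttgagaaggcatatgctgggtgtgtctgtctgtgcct
CHD9 before the start: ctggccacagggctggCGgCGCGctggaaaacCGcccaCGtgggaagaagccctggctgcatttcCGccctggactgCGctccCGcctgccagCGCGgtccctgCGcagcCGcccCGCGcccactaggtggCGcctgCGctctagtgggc
CHD1 before the start: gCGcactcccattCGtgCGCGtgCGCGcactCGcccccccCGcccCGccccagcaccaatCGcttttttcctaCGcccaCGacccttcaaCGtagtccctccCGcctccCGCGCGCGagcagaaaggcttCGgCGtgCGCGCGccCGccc

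All 9 genes had at least 1 peak, against 58.3% of the 20162 protein-coding genes and 71.1% of the 8970 protein-coding genes that are as long as the shortest to the longest CHD gene. *CHD2* had 13 peaks, *CHD9* 11, *CHD7* 7, *CHD6* 6 and *CHD3* 4. *CHD4* and *CHD5* had 2 each, and *CHD1* and *CHD8* had 1 each. Long genes hold more peaks, and the CHD genes range from 27965 bp for *CHD3* to 274160 bp for *CHD9*. Among protein-coding genes whose length is within 25% of that of *CHD2*, the median was 3 peaks, and 6.35% of these 1621 genes had at least as many as *CHD2*. For *CHD3* the median of 2739 genes of like length was 1 peak, and 7.48% had at least as many. That count of 4 includes a peak wholly before the gene record, which lies in *NAA38*. In the gene record only, *CHD3* had 3 peaks. The middle 80% of genes of like length, counted with the 2000 bp before them, reached 3. For the other 7 genes this share lay between 23.0% for *CHD9* and 72.3% for *CHD1*. These shares describe 1 library and are not a test.

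**Figure D1:**
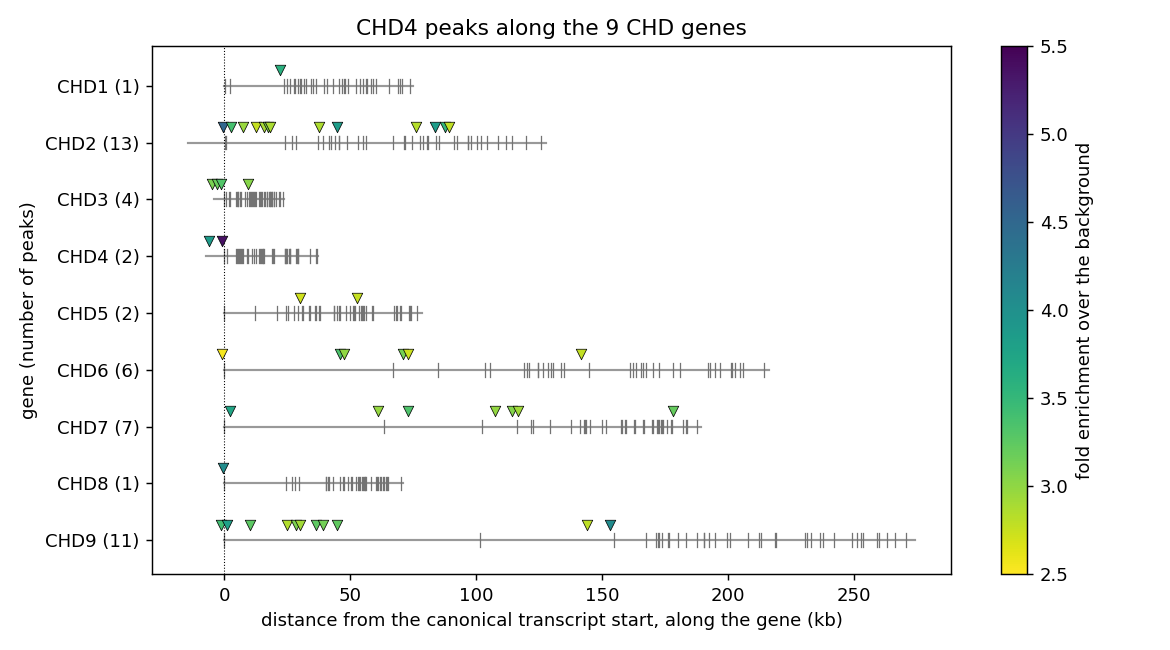
CHD4 peaks along the 9 CHD genes, by distance from the canonical transcript start in kb. Grey lines are the gene records, ticks are canonical exons and triangles are peak centres coloured by fold enrichment; *CHD2* (13 peaks) and *CHD9* (11) hold the most, and *CHD1* and *CHD8* hold 1 each.

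**Figure D2:**
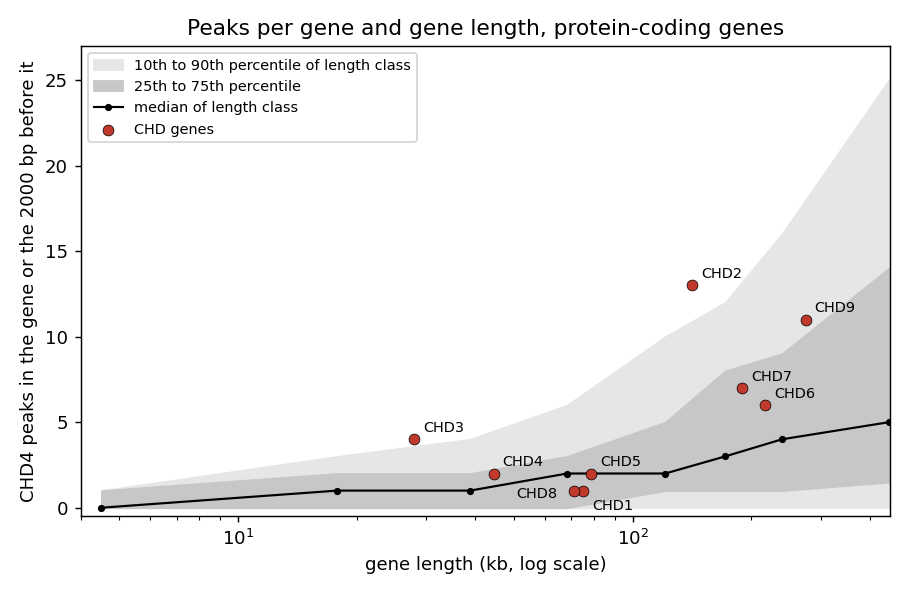
Number of CHD4 peaks per gene against gene length in kb on a log scale. The line and grey bands give the median, the middle 50% and the middle 80% of protein-coding genes in 8 length classes, each drawn at its median length, and red points are the CHD genes. *CHD2* and *CHD3* lie above the bands, *CHD3* with 4 peaks, of which 1 lies before the gene record in *NAA38*.

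Peak density was set against the surroundings of each gene. The ratio of the 2 was not counted over other protein-coding genes, so it has no background beside it. Copy number, which differs along the genome of a tumour line, was not measured here and its part was not tested. *CHD2* had 9.04 peaks per 100 kb, compared with 1.60 in the 1 Mb on either side, a ratio of 5.65. *CHD4* had 4.31 against 1.80, *CHD3* 13.35 against 5.75 and *CHD7* 3.66 against 1.70, with ratios of 2.39, 2.32 and 2.15. The *CHD3* value includes the peak in *NAA38*. *CHD9* and *CHD6* were closer to their surroundings, with ratios of 1.45 and 1.31. *CHD1*, *CHD5* and *CHD8* had fewer peaks per 100 kb than their surroundings, with ratios of 0.74, 0.67 and 0.62, which rest on 1 or 2 peaks each. Over the 9 genes together the density was 4.14 peaks per 100 kb, and over all protein-coding genes it was 2.58.

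**Figure D3:**
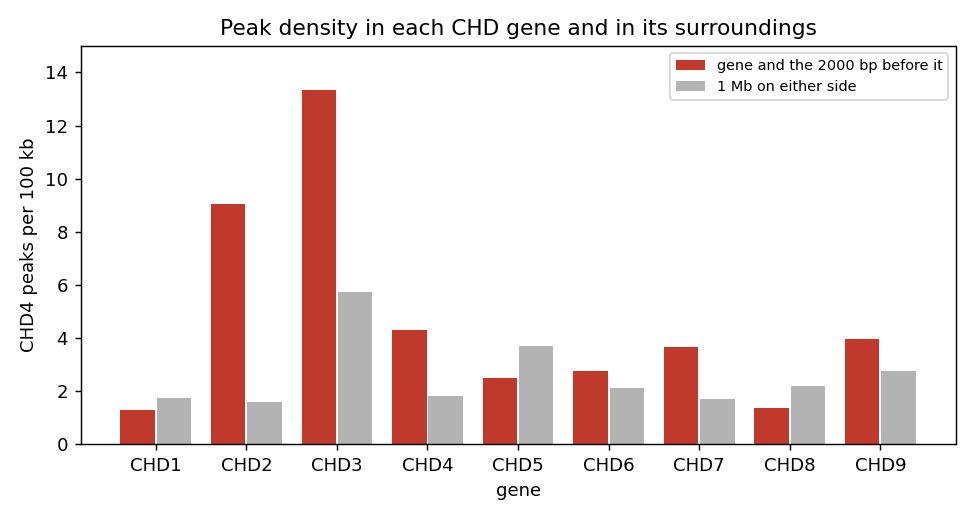
CHD4 peaks per 100 kb in each CHD gene with the 2000 bp before it (red bars) and in the 1 Mb on either side (grey bars). *CHD2* stands at 9.04 against 1.60, whereas *CHD1*, *CHD5* and *CHD8* lie below their surroundings.

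In strength the peaks of the family resembled the list as a whole. Their fold enrichment had a median of 3.10 and ranged from 2.55 to 5.38, and all peaks of the list had a median of 3.09. Of the 47 peaks, 24 lay above the median of the list and 23 below. A q of at most 0.01, which is a −log10 q of at least 2, was given for 21 of them, or 44.7% (Wilson 95% interval 31.4% to 58.8%), against 48.5% of all peaks. A −log10 q of at least 5 was given for 2, or 4.26% (1.17% to 14.2%), against 2.23% of all peaks. The intervals cover counting error only. Peak lengths ran from 151 to 3489 bp with a median of 601 bp, close to the 613 bp of the list.

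**Figure D4:**
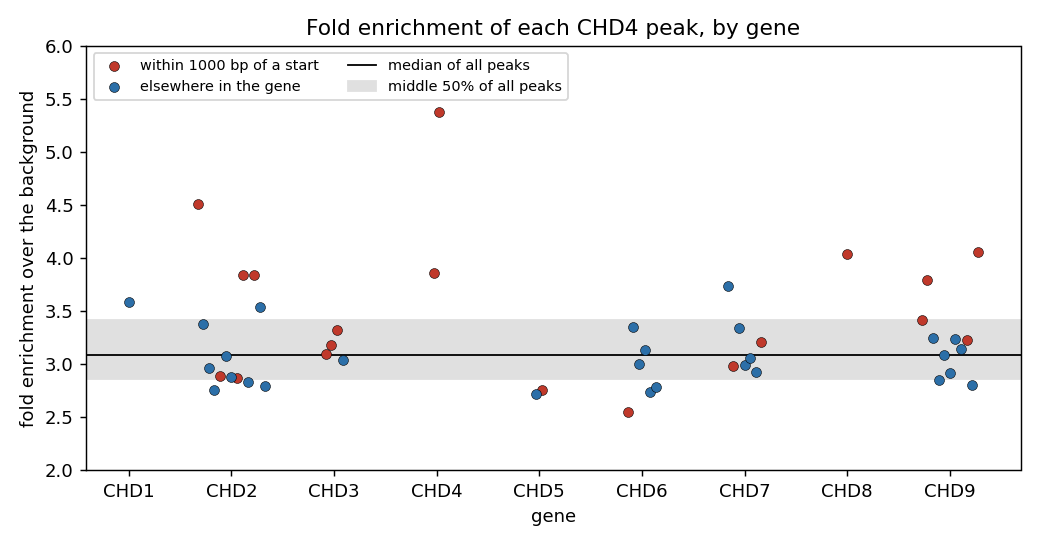
Fold enrichment over the background of each of the 47 CHD4 peaks, by gene, with the peaks of a gene in order along it. Red points lie within 1000 bp of an annotated start of the gene and blue points elsewhere; the line and band are the median (3.09) and middle 50% of all peaks of the list, and *CHD4* (5.38) and *CHD2* (4.51) have the strongest peaks.

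Of the NuRD ATPase genes, *CHD4*, which encodes the precipitated protein, had the strongest peak of the family. This gene (ENSG00000111642) lies on chromosome 12 from 6679248 to 6723690, on the minus strand. The strongest peak covers 1476 bp, from 6716787 to 6718262, with an enrichment of 5.38-fold and a −log10 q of 7.74. It ranked above 99.8% of the list by enrichment (95% Wilson bounds 99.7% and 99.8%) and above 99.9% of the 8327 peaks of like length. It ends 242 bp before the canonical start, which lies 7145 bp inside the gene record, and it covers the start of another annotated transcript. The start of ENSG00000285238, a readthrough gene, also lies within 1000 bp of it, so the peak is not placed at *CHD4* alone. The other peak of *CHD4*, from 6721194 to 6724118, is 2925 bp long and covers the outermost starts, at 3.86-fold and a −log10 q of 3.47. The 2 peaks take up 9.48% of the gene and the 2000 bp before it, which is the largest covered share among the 9 genes. No peak was called in the remaining part of *CHD4* downstream of the canonical start.

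*CHD3* (ENSG00000170004, chromosome 17, 7788114 to 7816078, plus strand) had 4 peaks of near-equal strength, with fold enrichments of 3.10, 3.18, 3.32 and 3.04 in order along the gene. The first 3 lie before the canonical start, which is 3993 bp inside the gene record. The nearest, from 7790331 to 7791616, ends 491 bp before it. The outermost, from 7787264 to 7787515, also lies in *NAA38*, which encodes a subunit of an N-terminal acetyltransferase and runs in the opposite direction, and cannot be given to either gene. The start of *NAA38* also lies within 1000 bp of the second peak. The fourth peak, from 7801422 to 7801956, covers the 100 bp of exon 13 whole. Of these peaks, 1 had a q of at most 0.01.

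*CHD5* (ENSG00000116254, chromosome 1, 6161847 to 6240381, minus strand) had the weakest best peak. Its fold enrichments were 2.72 in intron 7 and 2.76 in intron 25, with −log10 q of 1.61 and 1.44, so neither had a q of at most 0.01. The stronger one by fold enrichment ranked above 15.6% of the list and above 25.4% of the 7830 peaks of like length. It lies 772 bp from the start of another annotated transcript. By −log10 q the higher of the 2 values, 1.61 for the peak in intron 7, ranked above 30.0% of the list. The nearer one lies 29888 bp after the canonical start, and the nearest peak of the whole list 19763 bp before it. At the 3 NuRD ATPase genes the highest fold enrichment thus fell in the order *CHD4*, *CHD3*, *CHD5*, with 5.38, 3.32 and 2.76. With 1 library these differences have no replicate error to be set against.

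Of the *CHD1* and *CHD2* pair, *CHD2* (ENSG00000173575, chromosome 15, 93429433 to 93571226, plus strand) held 13 peaks and *CHD1* 1. The strongest of *CHD2*, from 93442811 to 93443471, was enriched 4.51-fold with a −log10 q of 5.24, above 98.5% of all peaks. It lies between *CHASERR*, the long non-coding RNA gene upstream of *CHD2* whose end it overlaps, and the canonical start 83 bp further on. *CHASERR* RNA is known to hold *CHD2* expression down in cis. Together with the 6 peaks that follow in intron 2 it forms a run that spans 19393 bp, or 13.7% of the gene length, and their fold enrichments range down to 2.76. A second run of 4 peaks spans 13358 bp from 93519638 to 93532995 and includes a peak of 1069 bp with a fold enrichment of 3.84, which covers the 171 bp of exon 25 whole and reaches 779 bp and 119 bp beyond it. Between the runs lie a peak of 151 bp in intron 10, the shortest length in the list, also with 3.84, and one of 406 bp in intron 6, with 2.87. The widest stretch between neighbouring *CHD2* peaks was 31126 bp. One of the intron 2 peaks also overlaps ENSG00000289017, a long non-coding RNA gene inside *CHD2*. A q of at most 0.01 was given for 5 of the 13 peaks.

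*CHD1* (ENSG00000153922, chromosome 5, 98189689 to 98264711, minus strand) had a single peak of 157 bp, printed whole above. It lies in intron 2, 22098 bp after the start, at 3.59-fold and a −log10 q of 2.75. It ranked above 83.4% of all peaks and above 71.1% of the 5850 peaks of like length. *CHD1* was the 1 gene of the 9 without a peak within 1000 bp of any annotated start.

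The *CHD6* to *CHD9* genes ranged from 1 to 11 peaks. *CHD9* (ENSG00000177200, chromosome 16, 53088903 to 53363062, plus strand) had 9 of its 11 peaks before its start or in intron 1. A pair of long peaks flanks the start. The first, of 2158 bp with a fold enrichment of 3.42, ends 221 bp before it, and the second, of 1614 bp with 3.79, begins after it. The first also overlaps *CHD9NB*, a neighbouring gene on the other strand with a start within 1000 bp of this peak. A run of 6 peaks within intron 1 spans 20979 bp, or 7.65% of the gene, and includes a peak of 3489 bp, the longest of the family, with 3.24. A stretch of 98230 bp without a peak follows. The strongest peak of *CHD9*, from 53241983 to 53242236, had a fold enrichment of 4.06 and lies in intron 2 of the canonical transcript, 39 bp from the start of another annotated transcript. Of the 11 peaks, 6 had a q of at most 0.01.

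*CHD6* (ENSG00000124177, chromosome 20, 40030723 to 40247023, minus strand) had 6 peaks with fold enrichments from 2.55 to 3.35. The lowest value, 2.55, belongs to the peak of 886 bp that ends 398 bp before the canonical start. This peak ranked above 2.41% of the list and had a q of 0.053. The other 5 lie in introns 1, 2 and 16, the strongest of them in intron 1. A peak in intron 2 overlaps *RPL12P11*, a processed pseudogene of a ribosomal protein gene. *CHD7* (ENSG00000171316, chromosome 8, 61591299 to 61780587, plus strand) had 7 peaks with fold enrichments from 2.93 to 3.74. Its strongest is a peak in intron 1, 2245 bp after the start, of 151 bp, which is the shortest length in the list. It ranked above 88.8% of all peaks and above 77.0% of the 5334 peaks of like length. The last peak of *CHD7*, of 601 bp, covers 285 of the 444 bp of exon 34. *CHD8* (ENSG00000100888, chromosome 14, 21853353 to 21924285, minus strand) had 1 peak, of 304 bp, which lies wholly before the gene and 372 bp from the canonical start. Its fold enrichment was 4.04 and its −log10 q 3.72, above 96.7% of the 9253 peaks of like length, and no peak was called inside *CHD8*.

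The peaks were next placed relative to transcription starts. Of the 9 genes, 8 had a peak within 1000 bp of an annotated start, against 43.0% of protein-coding genes. CHD genes have from 6 to 53 distinct annotated starts, and among the 9674 protein-coding genes in that span the share was 56.3%. For the canonical start alone it was 6 of 9 genes, against 35.1% of protein-coding genes and 38.8% of those of like length. The 6 genes are *CHD2*, *CHD3*, *CHD4*, *CHD6*, *CHD8* and *CHD9*. In all 6 the peak nearest the canonical start lay before it, at distances of 83, 491, 242, 398, 372 and 221 bp in that order, and in none did a peak cover the start base. Among the 6972 protein-coding genes with a peak within 1000 bp of the canonical start, 35.2% had the start base under a peak. With 6 genes this difference is a description only. The side of the nearest peak was not counted over all protein-coding genes, so it has no background beside it. Counting every annotated start, 19 of the 47 peaks lay within 1000 bp of one, or 40.4% (Wilson 95% interval 27.6% to 54.7%), against 29.0% of the 36667 peaks at protein-coding genes. The interval includes that share, which counts starts of any protein-coding gene and is not matched for the number of starts. The 40.4% counts starts of the CHD genes only. For the canonical start alone 14.9% of the 47 peaks lay near one, a share that was not counted over all peaks. The 19 peaks near any start had a median fold enrichment of 3.32, and the other 28 had one of 3.02.

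**Figure D5:**
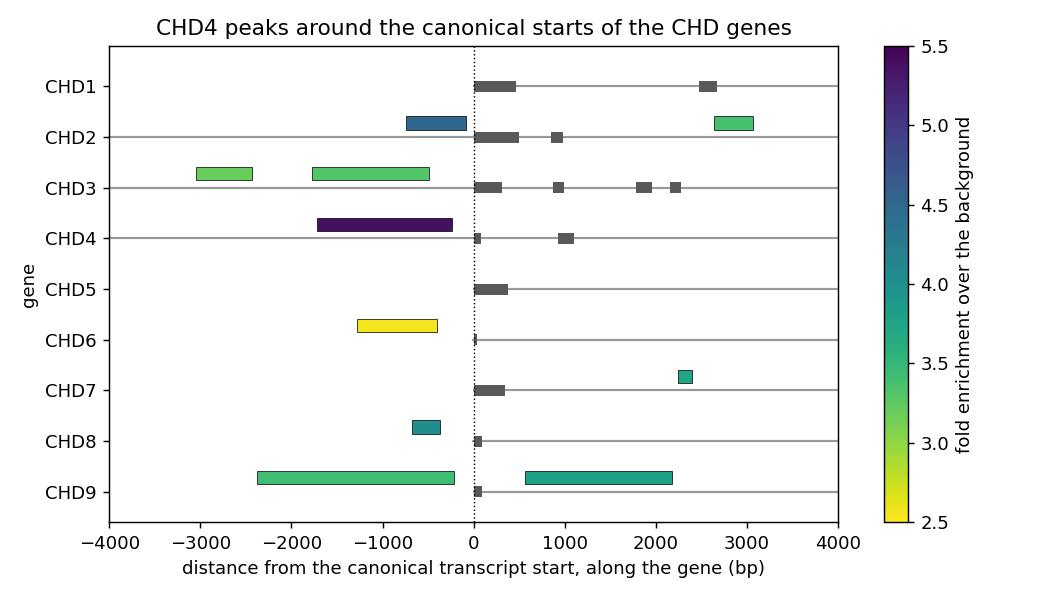
CHD4 peaks (bars coloured by fold enrichment) around the canonical start of each CHD gene, with canonical exons as dark boxes and distance in bp. In *CHD2*, *CHD3*, *CHD4*, *CHD6*, *CHD8* and *CHD9* a peak ends between 83 and 491 bp before the start, and no peak lies on the canonical start base.

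CpG content was compared between the starts and the nearest peak of each gene. In the 501 bp around the canonical start, the ratio of observed to expected CpGs was at least 0.6 in 6 of the 9 genes, against 68.7% of protein-coding genes. In windows of the same size at the centre of the nearest peak of the gene it was lower than at the start in 8 of the 9 genes, of which *CHD1*, *CHD5* and *CHD7* have their nearest peak more than 2000 bp away. In the 6 genes whose nearest peak was under 1000 bp away it was lower in 5, or 83.3%, with medians of 0.67 at the start and 0.41 at the peak. At *CHD4* it was 0.77 at the start and 0.21 at the peak, at *CHD9* 0.75 and 0.35, and at *CHD2*, whose start is poor in CpG, 0.29 and 0.06. *CHD3* was the exception, with 0.38 at the start and 0.57 at the peak. The same order held in 89.7% of the 4518 protein-coding genes that had a peak within 1000 bp of the canonical start but not on it, with medians of 0.85 and 0.52, so it is not particular to these genes.

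By the place of their centre in the canonical transcript, 26 of the 47 peaks lay in introns after the first, 12 in the first intron and 9 before the canonical start. These are 55.3%, 25.5% and 19.1%. The same shares were not counted over all protein-coding genes, so a mostly intronic placement is not a result about this family. None was centred in an exon, which allows a share of up to 6.38%, and over all protein-coding genes the share was 4.84%. Counting the exons of all annotated transcripts, 3 peaks were centred in one, or 6.38%, of which 2 are at *CHD2* and 1 at *CHD9*. The peaks that overlapped any canonical exon were the 3 named above, at *CHD2*, *CHD3* and *CHD7*, or 6.38% (Wilson 95% interval 2.19% to 17.2%), compared with 17.0% of all 40623 pairs of a protein-coding gene and a peak. Canonical exons make up 7.35% of the CHD genes with the 2000 bp before them, and 5.11% over all protein-coding genes.

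Exact matches on both strands were searched within 250 bp of each peak centre, a window that runs past the ends of short peaks, so some matches lie beside a peak and not in it. TATAAA occurred in the windows of 18 of the 47 peaks, or 38.3%, against 33.6% of all peaks on chromosomes 1 to 22, X and Y, and CCAAT in 15, or 31.9%, against 50.4%. GGGCGG, the GC box, occurred in 5 (10.6%, against 13.4%), the E-box CACGTG, which MITF can bind, in 4 (8.51%, against 7.97%), and the AP-1 site TGACTCA in 2 (4.26%, against 10.8%). The ETS site CCGGAAGT, the NRF1 site and the CTCF consensus were not found in any, and they occur in 0.848%, 0.171% and 1.49% of all peaks. Within the peaks themselves the shares were 14.9% for AP-1, against 17.1% of all peaks, and 48.9% for CCAAT, against 58.4%. They were 44.7% for TATAAA, 19.1% for the GC box and 12.8% for the E-box, against 41.4%, 17.7% and 12.6%. A match is not a binding site, and the absence of one refers only to these letters in these windows.

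Beside this family were set the genes of 12 other NuRD subunits and of 23 other ATPases of the SNF2 family. Of the NuRD subunit genes, 10 of 12 had a peak, and *MTA1* and *MBD2* had none. They held 51 peaks with a median fold enrichment of 3.11, most of them at *MTA3*, with 15, and *GATAD2A*, with 11, which encode NuRD scaffold subunits. Of the other ATPase genes, 21 of 23 had a peak, and *EP400* and *ZRANB3* had none. These held 43 peaks with a median fold enrichment of 3.13, and at most 4 a gene. The density was 4.14 peaks per 100 kb in the CHD genes, 5.64 in the NuRD subunit genes and 1.59 in the other ATPase genes. A peak lay within 1000 bp of the canonical start of 6 of 9, 9 of 12 and 17 of 23 genes. Whether the lists differ was not tested.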

How the data were processed

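CHD4 ChIP-seq was analysed in 501Mel melanoma cells, with 1 ChIP and 1 input library. The authors mapped reads to hg19 with Bowtie, discarded reads that fitted more than 1 place, and detected peaks with MACS. The paper gives broad calling with a q of 0.01. The list holds −log10 q values down to 1.00, and 48.5% of its peaks have one of at least 2. Why these values differ from the stated cutoff was not tested. The submitters' processing notes name Bowtie 1.0.0 and MACS2 2.1.1.20160309. Use of the input as the control is not stated in the sources used here and was assumed. The deposited list gives per peak a score (a whole number that follows the −log10 q), the fold enrichment, a ratio over the background, and the −log10 p and −log10 q of the authors' caller. The deposited values were used as they stand. The list holds no counts, so depth sets no interval here.

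Peaks were intersected with GENCODE release 44 on GRCh37, and sequence was read from GRCh37. All 60126 peaks were ranked, and 60123 on chromosomes 1 to 22, X and Y were searched for motifs. The canonical transcript is Ensembl's. Wilson intervals are at 95%. The limit for a count of 0 is 3 counts of the total. The genes named are the 9 CHD genes, genes their peaks also overlap, and from each comparison list those with the most peaks and with none. Members and lists were chosen with earlier results of these data known, and the comparisons of start base and CpG content were added after seeing the peaks. The overlap code was tested on simulated data. Python 3.11.15, numpy 2.4.6, pandas 2.3.3, scipy 1.17.1 and matplotlib 3.10.9 were used.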

Additional observations from a re-analysis of the deposited data

How the results depend on the processing

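No paired analysis was possible because the design has a lone ChIP library and a lone input and nothing was tested. Of the alternatives, 35 values answering a comparison stayed within their limits and 34 moved. Among the values for single genes and for the start base, 44 stayed and 52 moved. The cause was not tested except that stricter minima and narrower windows can only leave fewer peaks. Keeping a −log10 q from 2 upwards, the CHD gene peaks fell from 47 to 21 and the density from 4.14 to 1.85 per 100 kb, the median fold enrichment became 3.54, and 57.1% of the peaks lay at a start. From 5 upwards these values were 2, 0.18, 4.94 and 100%, and with a fold enrichment of at least 4 they were 4, 0.35, 4.28 and 100%. Genes with a peak fell from 9 to 2 and 4 under the last pair of settings, and genes with a peak at a start from 8 to 2 and 4. A minimum fold enrichment of 4 by itself fixes a median of at least 4, and a minimum −log10 q also picks stronger peaks. The shares of peaks at a start were not counted over all peaks under these minima.

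Among protein-coding genes, the share with a peak was 58.3%, and 43.2%, 4.73% and 10.2% under these 3 minima. It was 50.8% in the gene record only, 60.6% with 5000 bp before the start and 57.5% with at least 50% of the peak inside. The share with a peak at a start was 43.0%, and 28.2%, 2.26% and 4.74% under the minima, 38.5% and 47.7% within 500 and 2000 bp, and 35.1% for the canonical start. For that start alone 14.9% of the CHD gene peaks lay at a start. The median rank of the strongest peak of each gene was 88.8%, and 82.8% by −log10 q, 83.4% among peaks of like length and 87.4% on the same chromosome. Where a gene has several peaks, taking the strongest by itself raises its rank against single peaks. The strongest peaks of other genes were not ranked, so these values do not show unusual strength. Searching the whole peak moved the share with AP-1 from 4.26% to 14.9% and with CCAAT from 31.9% to 48.9%, while over all peaks these went from 10.8% to 17.1% and from 50.4% to 58.4%. In the gene record only, *CHD8* had 0 peaks and 8 genes had one, and with 5000 bp before the start *CHD2* had 14. Allowing 100 bp around the start base, a setting chosen after seeing the data, 1 of 6 genes had a peak there, and 41.0% of protein-coding genes with a nearby peak.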
